A study of Mus musculus with 51 samples.

Results

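Messenger RNA was counted per gene in XY gonads of mice at postnatal day 3 (P3) that were either heterozygous for the point mutation R111G of Dmrt1 (Dmrt1 R111G/+) or homozygous for a Dmrt1 null allele (Dmrt1 -/-), with 3 libraries of each genotype. The comparison covers every gene that passed a filter on low counts, which kept 15837 of the 55401 genes in the table. The same day also gave 3 libraries each of Dmrt1 +/- and Dmrt1 R111G/- gonads, which entered the same statistical fit and supply side values. All mice were of a mixed 129Sv and C57Bl/6J background. By genotype, R111G/+ animals carried 1 mutant and 1 wild-type copy of the gene, and -/- animals carried no intact copy in any cell. The R111G line descends from 1 founder animal edited with CRISPR. The libraries represent whole gonads, in which fewer cells of a type and less RNA per cell cannot be told apart. The labels do not say that each library is a separate animal, so the p-values measure only the spread between these samples. The comparison asks how the transcriptome of a gonad with an altered DMRT1 protein beside a normal one differs from that of a gonad with no DMRT1.

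DMRT1 is a transcription factor with a DM domain, a zinc-dependent DNA-binding module. In the postnatal testis it is made in Sertoli cells, the somatic support cells of the seminiferous tubule, and in germ cells. Loss of Dmrt1 from the mouse testis lets Sertoli cells take on features of granulosa cells, the matching support cells of the ovary, and FOXL2 is the best known transcription factor of that ovarian fate. In spermatogonia the protein acts in the maintenance of the stem cell state and in the choice between mitosis and meiosis.

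The mutated arginine lies in exon 1 of Dmrt1, within the DM domain. The allele name does not follow the numbering of the mouse transcript in GENCODE M21, where the codon that the study's repair template changes lies at chr19:25506178-25506180 of GRCm38 on the plus strand. The reference sequence around it, at chr19:25506142-25506201 of GRCm38, is shown because it places the designed amino acid change, with the arginine codon in capitals.
Dmrt1 exon 1: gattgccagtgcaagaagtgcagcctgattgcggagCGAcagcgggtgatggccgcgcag

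A gene was called when its adjusted p, from edgeR's quasi-likelihood F test with Benjamini–Hochberg adjustment over all genes tested, was below 0.05 and its fold change was over 2. By that rule 299 of the 15837 genes (1.89%) were called, 143 higher in R111G/+ gonads (0.903%) and 156 lower (0.985%). At any fold, 276 genes were higher and 252 lower at an adjusted p below 0.05 (3.33% of genes). The 2 groups of libraries did not overlap in 3651 of the 15837 genes (23.1%). Log2 fold changes went past 2 in 58 of the genes called higher and past -2 in 57 of those called lower, and the median over all genes tested was -0.003. Library totals ran from 8476708 to 9101672 counts in R111G/+ and from 7815162 to 8643604 in -/- gonads. The count of calls rested on the libraries included, since leaving out R111G/+ replicate 3 gave 87 higher and 57 lower genes, and leaving out -/- replicate 1 gave 89 and 93. Called lower were 88 genes without R111G/+ replicate 1 and 101 without -/- replicate 3.

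Dmrt1 itself (chr19:25505618-25604329 of GRCm38) stood at 137, 112 and 154 CPM in the R111G/+ libraries and at 3.11, 2.24 and 3.54 CPM in the -/- libraries, where CPM are counts scaled to library size with TMM factors. The groups lay far apart (log2 fold change 5.49 ± 0.24 SE, adjusted p = 9.32e-08, edgeR), and all 6 libraries went with their labels. With 1 transcribed copy of the gene, levels were 55.9, 86.3 and 73.7 CPM in +/- gonads and 66, 79.4 and 55.6 CPM in R111G/- gonads. Means were 134.4 CPM in R111G/+, 72 CPM in +/- and 67 CPM in R111G/- gonads. The table gives 1 value for the entire gene, so reads from the part removed in the null allele were not counted apart.

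**Figure D1:**
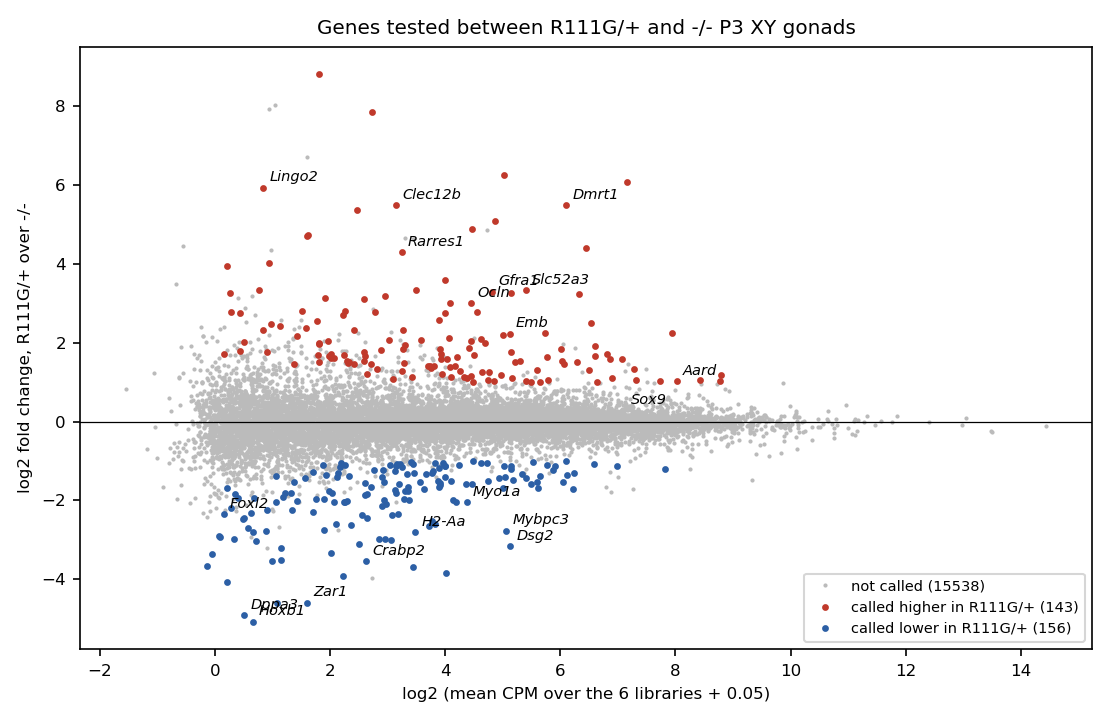
Log2 fold change between Dmrt1 R111G/+ and -/- P3 XY gonads (y axis) against the log2 of the mean CPM over the 6 libraries (x axis) for the 15837 genes tested, with red points for the 143 genes called higher and blue points for the 156 called lower in R111G/+. Dmrt1 lies at 5.49, among the highest of the labelled genes, and Sox9 at 0.29 lies among the genes not called.

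Some genes of the Sertoli cell and its junctions were higher in R111G/+ gonads, and most Sertoli cell markers did not pass the test. Of 24 Sertoli cell markers tested, 5 were called higher in R111G/+ gonads and 1 lower, with a median log2 fold change of 0.13 beside -0.003 for all genes. The count fell to 2 higher without -/- replicate 1 and to 3 without R111G/+ replicate 3. Those called were Cst9 (testatin, a member of the cystatin family), Cldn11 (the claudin of Sertoli cell tight junctions), Aard, Etd and Defb36, a beta-defensin, while Vnn1, a pantetheinase, was lower (log2 fold change -1.12, adjusted p = 0.0341, edgeR) and lost its call without either of replicates 1 and 2 of -/- or of replicates 1 and 3 of R111G/+. Defb36 (1.4, adjusted p = 0.0209, edgeR) and Vnn1 fall outside the naming rule and are named with their values seen.

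Cst9 stood at 123, 151 and 198 CPM in R111G/+ gonads and at 18.3, 48.4 and 16.9 CPM in -/- gonads. The groups did not overlap, and -/- replicate 2 lay above the other 2 null libraries (log2 fold change 2.50 ± 0.47 SE, adjusted p = 0.00993, edgeR). Its call was lost without -/- replicate 1 or R111G/+ replicate 3. Aard was steady within R111G/+ gonads at 343, 351 and 351 CPM and lower in -/- gonads at 150, 184 and 183 CPM (1.02 ± 0.17, adjusted p = 0.00405), and fell short of the fold limit without -/- replicate 1. Etd, low in both, gave 3.62, 1.68 and 5.41 CPM against 0.249, 0 and 0.342 CPM (4.03 ± 0.67, adjusted p = 0.00439). The R111G/+ level of Etd lay below that of +/- gonads, which held 10.6, 11.5 and 11.4 CPM, although the difference between these 2 genotypes was not called.

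Of 11 tight junction genes tested, Ocln and Cldn11 were called higher and none lower, with a list median of 0.42. Ocln encodes occludin, a transmembrane protein of the tight junctions that form the blood-testis barrier. Its level was 45.6, 36.3 and 35.2 CPM in R111G/+ gonads and 5.60, 1.84 and 6.96 CPM in -/- gonads, a gap of 3.00 ± 0.35 SE on the log2 scale (adjusted p = 0.000411, edgeR). Cldn11 gave 49.2, 27.3 and 47.5 CPM against 11.4, 10.1 and 9.59 CPM (1.99 ± 0.28, adjusted p = 0.0015). Gja1, the gap junction protein connexin 43, came close to the fold limit without passing it (0.98, adjusted p = 0.0433).

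Several of the widest gaps belonged to genes that are no cell type markers here. Clec12b, a C-type lectin receptor, stood at 22.9, 14.1 and 14.6 CPM in R111G/+ and at 0.249, 0.526 and 0.342 CPM in -/- gonads (log2 fold change 5.48 ± 0.38 SE, adjusted p = 4.70e-06, edgeR). Rarres1, a retinoic acid-inducible gene, gave 16.3, 16.9 and 20.8 CPM against 0.995, 0.658 and 1.03 CPM (4.30 ± 0.22, adjusted p = 1.97e-07). All 3 R111G/+ libraries lay far above all 3 null libraries for both genes, with little spread within a genotype.

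Lingo2, a leucine-rich repeat membrane protein, had 92 counts over the R111G/+ libraries and 1 count over the -/- libraries, a ratio of 83.9 with a 95% counting interval from 14.7 to 3350. Slc52a3, a riboflavin transporter, gave 82.6, 72.4 and 75.5 CPM against 6.10, 12.4 and 4.57 CPM (3.34 ± 0.33, adjusted p = 0.000139, edgeR). Sh3gl2, the endocytic protein endophilin A1, gave 69.7, 69.3 and 51.9 CPM against 8.83, 6.58 and 4.68 CPM (3.25 ± 0.22, adjusted p = 4.67e-06). For each of these genes every R111G/+ library lay above every null library, which the naming rule required.

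Tbc1d30, a GTPase-activating protein for Rab proteins, gave 33.4, 28.8 and 25.9 CPM against 1.37, 2.37 and 3.54 CPM (3.58 ± 0.47, adjusted p = 0.000949, edgeR). Dmrta1, another gene of the DM domain family, gave 22.6, 14.2 and 24.5 CPM against 1.87, 2.63 and 1.6 CPM (3.33 ± 0.40, adjusted p = 0.000463). Emb, or embigin, a membrane glycoprotein partner of monocarboxylate transporters, gave 67.2, 54.9 and 49.6 CPM against 13.4, 9.73 and 13.4 CPM (2.23 ± 0.18, adjusted p = 3.09e-05). Further genes called higher by 3 to 4 log2 units were Ntn4, a netrin of basement membranes (3.19), Cidea, a lipid droplet protein (3.26), Lmo3, a LIM-only transcription cofactor (3.33), and Vwde (3.13). Sox10, a transcription factor of neural crest and glia, was higher by 1.76 (adjusted p = 0.0291) and lost the call when any 1 library other than R111G/+ replicate 2 was left out.

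Levels in the other 2 genotypes of the same day separated these genes into different patterns, given here as values, since those comparisons share libraries with this one. Clec12b reached 18.2, 17.1 and 14.5 CPM in +/- gonads and 2.37, 4.73 and 4.75 CPM in R111G/- gonads, above the null level in each library (R111G/- against -/-, log2 fold change 3.37, called). Rarres1 showed the same order, with 10.4, 8.86 and 9.22 CPM in R111G/- gonads (3.38, called). Sh3gl2 stood at 39.3, 45 and 39.2 CPM in R111G/- gonads, within the range of the +/- libraries at 34.2 to 53.6 CPM. For these 3 genes the mutant copy alone went with a level above that of gonads without DMRT1.

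Ocln, by contrast, stood at 5.01, 4.86 and 4.07 CPM in R111G/- gonads, inside the -/- range, and at 14.8, 24.9 and 30.7 CPM in +/- gonads. Slc52a3 stood at 10.7, 5.34 and 12.3 CPM in R111G/- gonads, and Cldn11 at 10.5, 6.68 and 14 CPM. None of these differences from -/- was called (log2 fold changes -0.06, 0.31 and -0.004 for Ocln, Slc52a3 and Cldn11). Emb followed another order, with 84.8, 77.4 and 62.9 CPM in R111G/- gonads against 15.8, 18.7 and 23.1 CPM in +/- gonads, and was called higher in R111G/+ than in +/- gonads (1.58). Lingo2 and Ntn4 were likewise called higher in R111G/+ than in +/- gonads (3.84 and 2.17). In all, 21 genes were called between R111G/+ and +/- gonads (0.133%), 13 higher in R111G/+ (0.0821%) and 8 lower (0.0505%). Between R111G/- and -/- gonads 28 were called (0.177%), 19 higher in R111G/- (0.12%) and 9 lower (0.0568%), and between -/- and +/- gonads 81 (0.511%), 32 higher in -/- (0.202%) and 49 lower (0.309%). With DESeq2's Wald test these 3 totals were 79, 62 and 127.

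**Figure D2:**
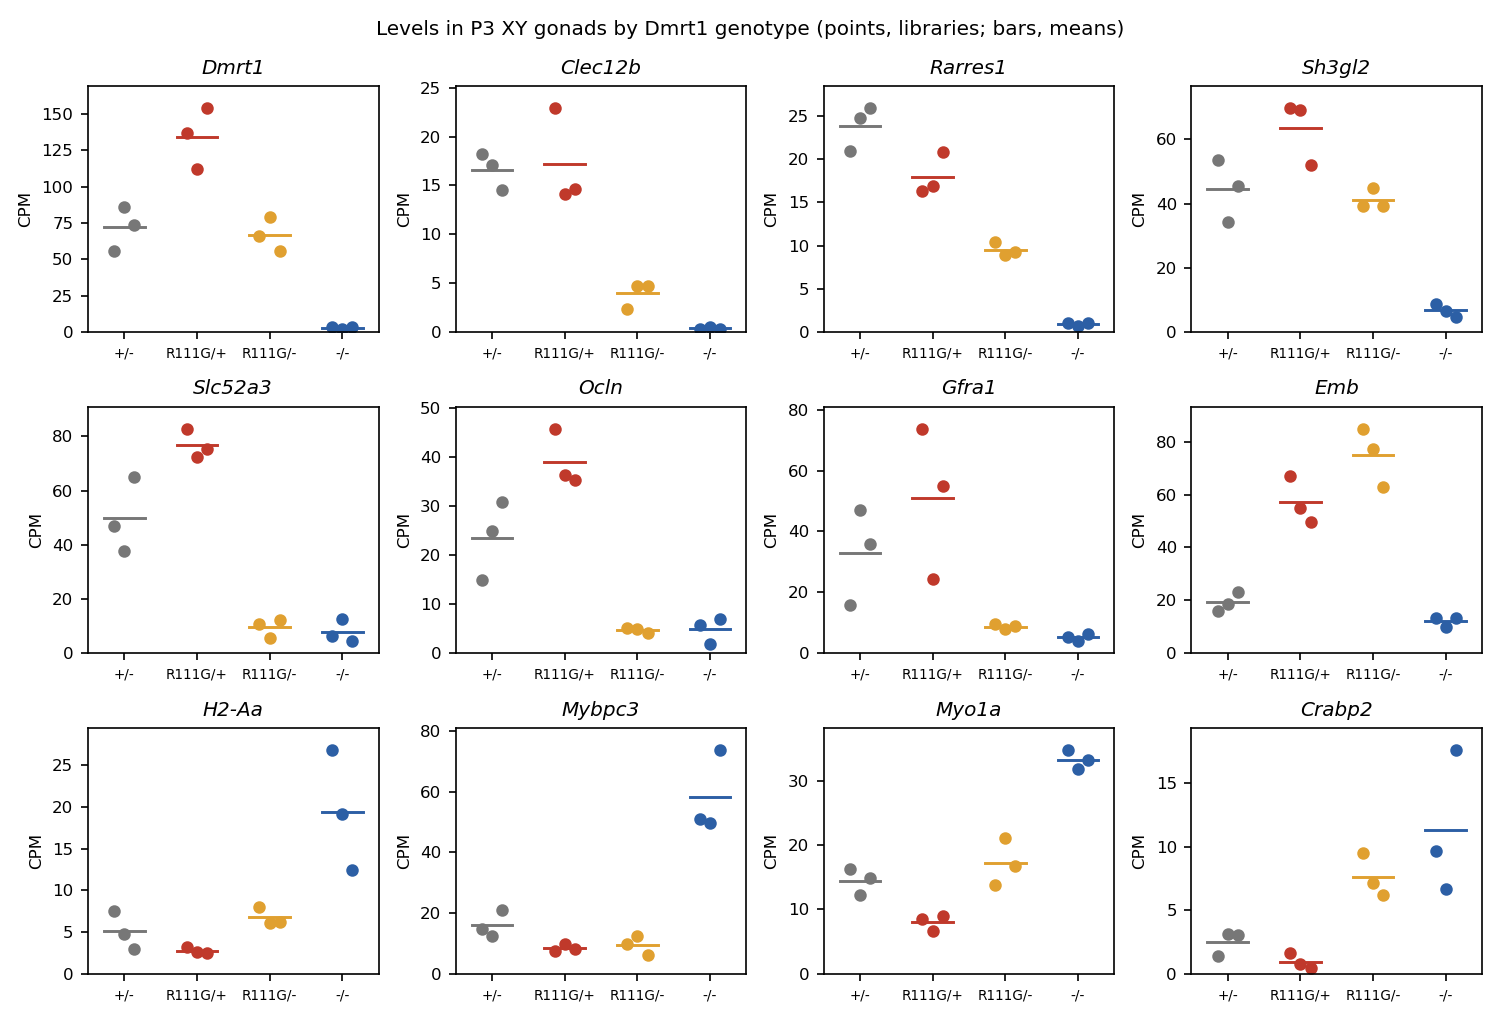
Levels in CPM (y axes, from 0) of 12 genes in P3 XY gonads of the Dmrt1 genotypes +/-, R111G/+, R111G/- and -/- (x axes), with points for the 3 libraries of each genotype and bars for their means. Ocln, Slc52a3 and Gfra1 lie near the null level in R111G/- gonads, Clec12b and Rarres1 lie between, and Emb and Sh3gl2 stay high.

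Some genes of undifferentiated spermatogonia were higher in R111G/+ gonads, and most did not pass the test. Of 18 spermatogonial genes tested, 5 were called higher and none lower, with a median log2 fold change of 0.65. They were Gfra1 and Ret, the co-receptor and the receptor kinase for the stem cell growth factor GDNF, and Bcl6b, Lhx1 and Id4, transcriptional regulators linked to spermatogonial stem cells. Id4 (1.85, adjusted p = 0.0241, edgeR) lies outside the naming rule and is named with its value seen. Gdnf itself, made by Sertoli cells and likewise named with its value seen, stood at a mean of 47.8 CPM in R111G/+ and 49.3 CPM in -/- gonads (adjusted p = 0.956).

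Gfra1 stood at 73.6, 24.3 and 54.8 CPM in R111G/+ gonads and at 5.35, 3.95 and 6.16 CPM in -/- gonads (log2 fold change 3.29 ± 0.44 SE, adjusted p = 0.00108, edgeR). Ret gave 44.7, 15.2 and 30.8 CPM against 5.35, 1.05 and 4.68 CPM (3.01 ± 0.54, adjusted p = 0.00758). R111G/+ replicate 2 was the lowest library of its genotype for both genes, yet lay above every null library. Lhx1 gave 16.6, 9.61 and 9.67 CPM against 2.24, 0.658 and 2.28 CPM (2.77 ± 0.41, adjusted p = 0.00244), and Bcl6b 34.3, 23 and 26.6 CPM against 10.6, 6.71 and 9.70 CPM (1.63 ± 0.21, adjusted p = 0.000748).

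General germ cell genes are given beside these values. None of the 19 tested was called, 17 of them had a positive log2 fold change, and their median was 0.59. Their summed level was 890, 380 and 757 CPM in R111G/+ gonads and 478, 281 and 537 CPM in -/- gonads, so the ranges overlapped and replicate 2 was the lowest in each genotype. Ddx4 and Dazl, germ cell RNA-binding proteins, had log2 fold changes of 1.14 and 0.98 (adjusted p = 0.217 and 0.261). The summed germ cell level of each library was also added to the edgeR fit as a covariate, chosen after the data were seen. With it the log2 fold change was 2.55 for Gfra1 (adjusted p = 0.000149, edgeR), 2.21 for Ret (0.00196), 2.57 for Lhx1 (0.00836) and 1.43 for Bcl6b (0.0016). Each kept its call. The sum includes Mkrn1, with means of 111.9 CPM in R111G/+ and 107.7 CPM in -/- gonads. The part of germ cell number in these calls was not tested. Without R111G/+ replicate 2, 8 spermatogonial genes were called higher.

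Among the genes lower in R111G/+ gonads, and so higher without DMRT1, those of the major histocompatibility complex (MHC) class II formed the most complete group. MHC class II molecules present peptides to helper T cells, and CIITA is the transactivator that drives their genes. Of 7 such genes tested, 6 were called lower, H2-Aa, H2-Ab1, H2-Eb1, H2-DMa, H2-DMb1 and Ciita, and the list median was -2.60. It was 5 or 6 genes under each alternative tried. Ciita (-2.60, adjusted p = 0.00431) and H2-DMa (-1.11, adjusted p = 0.0471) were named with their values seen. Cd74, the invariant chain, was also named with its value seen and was not called (-0.92, adjusted p = 0.227, edgeR).

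H2-Aa stood at 3.18, 2.57 and 2.53 CPM in R111G/+ gonads and at 26.8, 19.2 and 12.4 CPM in -/- gonads (log2 fold change -2.81 ± 0.34 SE, adjusted p = 0.000564, edgeR). H2-Ab1 gave 1.64, 2.24 and 0.921 CPM against 12.6, 15 and 10.8 CPM (-2.98 ± 0.33, adjusted p = 0.000312). H2-Eb1 gave 3.07, 1.23 and 1.15 CPM against 18.9, 15.7 and 9.82 CPM (-3.01 ± 0.38, adjusted p = 0.000786). The summed level of the list was 17, 12.9 and 10.5 CPM in R111G/+ gonads against 81.5, 71.4 and 52.2 CPM in null gonads, and 17.8 to 22.5 CPM in +/- gonads.

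Macrophages are the usual source of MHC class II mRNA in the testis. Of 15 macrophage genes tested none was called, their median log2 fold change was 0.39, and their summed level was 207, 240 and 233 CPM in R111G/+ gonads against 249, 206 and 144 CPM in -/- gonads. The macrophage sum overlapped between the genotypes and the MHC class II sum did not, where 23.1% of single genes tested had no overlap. Which cells held the MHC class II mRNA was not tested. None of the general macrophage markers Csf1r, Cd68, Cx3cr1 and Mrc1 was called.

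The promoters of 3 of the called MHC class II genes are shown because these genes moved together and each window holds the core of the Y box, an inverted CCAAT motif of such promoters. The windows run from 250 bases before to 50 after the gene start, from RefSeq annotation of GRCm38.p6, with the motif GATTGG, searched on both strands, in capitals. Of the list, 4 genes had a promoter in the reference table and 3 held the motif, beside 21.29% of the promoters of tested genes and 16.56% of all. The motif is a match of letters in these windows and no more.
H2-Aa, chr17:34287774-34288073 minus strand: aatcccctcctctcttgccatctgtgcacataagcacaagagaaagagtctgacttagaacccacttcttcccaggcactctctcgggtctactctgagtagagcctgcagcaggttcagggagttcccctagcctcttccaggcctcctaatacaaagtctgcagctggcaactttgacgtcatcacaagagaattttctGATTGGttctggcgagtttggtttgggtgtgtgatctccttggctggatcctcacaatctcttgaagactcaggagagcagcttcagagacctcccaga
H2-DMb1, chr17:34152941-34153240 plus strand: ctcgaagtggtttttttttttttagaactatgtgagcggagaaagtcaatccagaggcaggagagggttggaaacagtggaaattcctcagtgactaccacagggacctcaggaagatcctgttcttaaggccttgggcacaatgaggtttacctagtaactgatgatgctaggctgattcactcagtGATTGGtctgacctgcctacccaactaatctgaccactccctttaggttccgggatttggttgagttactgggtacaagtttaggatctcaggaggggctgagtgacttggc
H2-Eb1, chr17:34305617-34305916 plus strand: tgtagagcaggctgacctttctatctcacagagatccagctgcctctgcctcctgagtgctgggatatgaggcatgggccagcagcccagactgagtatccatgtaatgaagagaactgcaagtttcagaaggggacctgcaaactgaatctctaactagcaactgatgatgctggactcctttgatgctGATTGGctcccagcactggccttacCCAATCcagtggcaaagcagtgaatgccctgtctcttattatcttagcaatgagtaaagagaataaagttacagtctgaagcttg

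Foxl2 and Emx2 were lower in R111G/+ gonads, while most granulosa cell genes did not pass the test. Foxl2 was at 0.219, 0.447 and 0.345 CPM in R111G/+ gonads and at 1.74, 2.37 and 1.26 CPM in -/- gonads (log2 fold change -2.35 ± 0.48 SE, adjusted p = 0.0162, edgeR). Emx2, a homeobox gene needed to form the gonad, gave 1.75, 1.79 and 1.73 CPM against 4.85, 6.71 and 6.51 CPM (-1.77 ± 0.30, adjusted p = 0.0056). These were the only 2 of 18 granulosa cell and ovary-determining genes called, both lower, with a list median of -0.21. Other members had positive values without a call, among them Gng13 at 2.14 (adjusted p = 0.104) and Pgr, the progesterone receptor, at 0.74 (adjusted p = 0.148). The Foxl2 call rests on 9 counts over the R111G/+ and 43 over the -/- libraries, and it was lost when either of R111G/+ replicates 1 and 3 or -/- replicates 1 and 2 was left out.

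Crabp2, a carrier protein that delivers retinoic acid to its receptors, stood at 1.64, 0.782 and 0.46 CPM against 9.70, 6.71 and 17.6 CPM (-3.53 ± 0.48, adjusted p = 0.00121, edgeR). Hoxb1, a homeobox gene that responds to retinoic acid in the embryo, had 2 counts over the R111G/+ libraries and 76 over the -/- libraries. The ratio was 0.0240, with a 95% counting interval from 0.00285 to 0.0897. Hoxb1 varied widely among null libraries at 2.49, 0.526 and 5.94 CPM. Of 19 retinoic acid genes tested, Rarres1 was called higher and Crabp2 lower, with a list median of -0.03.

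Of 14 pluripotency-associated genes tested, Dppa3 alone was called, lower, and the list median was -0.07 with 5 positive values. Sox2, a pluripotency transcription factor, was at -2.34 (adjusted p = 0.0846, edgeR) and Klf4, another, at 0.61 (adjusted p = 0.126). Dppa3, a gene of primordial germ cells and oocytes also called Stella, had 2 counts over the R111G/+ and 66 over the -/- libraries (ratio 0.0276, interval 0.00328 to 0.104). Zar1, an oocyte gene, stood at 0.11, 0.447 and 0.115 CPM against 3.48, 5.52 and 8.22 CPM (-4.59 ± 0.63, adjusted p = 0.00129, edgeR). Zar1 also stood at 6.24, 1.64 and 3.95 CPM in +/- gonads, all above the R111G/+ range (R111G/+ against +/-, -4.05, called). Otx2, a homeobox gene of the early embryo, gave 0.219, 0.224 and 0 CPM against 6.59, 0.526 and 4.79 CPM, with -/- replicate 2 near the R111G/+ range. Nobox, an oocyte homeobox gene named with its values seen, was lower by -2.70 (adjusted p = 0.0392). The calls of Hoxb1 and Otx2 were lost when any 1 library other than -/- replicate 2 was left out, and that of Nobox when any 1 of the 6 was. Dppa3 lost its call without R111G/+ replicate 1 or 3.

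Further genes called lower in R111G/+ gonads had among the smallest adjusted p-values or the largest decreases. Mybpc3, known as cardiac myosin-binding protein C, stood at 7.56, 9.95 and 8.17 CPM against 51.1, 49.7 and 73.6 CPM (-2.76 ± 0.26, adjusted p = 9.54e-05, edgeR). Myo1a, a myosin of the intestinal brush border, gave 8.55, 6.71 and 8.98 CPM against 34.7, 31.8 and 33.2 CPM (-2.04 ± 0.18, adjusted p = 5.35e-05). Speg, a striated muscle kinase, gave 16.8, 17.8 and 14.6 CPM against 40.8, 43.4 and 49.3 CPM (-1.44 ± 0.14, adjusted p = 0.000137). The 2 groups of each of the 3 genes were tight and well apart, and the naming rule required that they not overlap.

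Dsg2, a desmosomal cadherin, gave 7.23, 6.48 and 7.36 CPM against 58.6, 56.3 and 73.3 CPM (-3.16 ± 0.40, adjusted p = 0.000873, edgeR). Ky, a muscle peptidase gene, was lower by a log2 fold change of -3.11 (adjusted p = 0.00371). None of 6 skeletal muscle genes tested was called, and their summed level was 10.1, 9.72 and 11.4 CPM in R111G/+ against 16.3, 12.9 and 17.8 CPM in -/- gonads. Mybpc3 fell to 9.76, 12.6 and 6.10 CPM in R111G/- gonads and was called lower there than in -/- gonads (-2.61), while Myo1a stood at 13.8, 21.1 and 16.7 CPM in R111G/- gonads.

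Other large decreases were found in genes of varied function. Ccl17, a chemokine, stood at 0.548, 5.03 and 0.69 CPM against 35.1, 34.1 and 21 CPM (-3.83 ± 0.68, adjusted p = 0.00663, edgeR), with R111G/+ replicate 2 above the other 2. Il22ra1, a subunit of the interleukin 22 receptor, was lower by -3.33, Slc9a3, a sodium-proton exchanger, by -3.21, and Slc10a4l by -3.68. Ifitm7, of the interferon-induced transmembrane family, was at -3.50, Cnpy1 at -3.52 and Gldn, or gliomedin, at -3.92. The calls of Il22ra1 and Gldn were lost without R111G/+ replicate 1 or 3. Bmerb1 (-2.36, adjusted p = 0.000104) and Chst10, a sulfotransferase of the HNK-1 carbohydrate (-1.21, adjusted p = 0.000139), were lower with less spread. Gldn stood at 26.6, 4.51 and 18.9 CPM in +/- and 8.96, 34.8 and 14.1 CPM in R111G/- gonads, and it was called lower in R111G/+ than in +/- gonads (-4.86), as was Ky (-3.41).

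Several regulators of sexual fate were not called. Sox9, the central Sertoli cell transcription factor, had a mean of 153.2 CPM in R111G/+ and 124.9 CPM in -/- gonads (log2 fold change 0.29, adjusted p = 0.593, edgeR), and Sox8 one of 145.2 and 132.5 CPM (0.13, adjusted p = 0.776). Esr2 and Esr1, the estrogen receptors, had values of 0.70 and -0.32, Nr5a2, a nuclear receptor of granulosa cells, -0.10, and Hsd17b3, an enzyme of testosterone synthesis, 0.18, none with an adjusted p under 0.226. Zfp521, a zinc finger protein, passed the p threshold at -0.78 (adjusted p = 0.0259) and fell short of the fold limit. Amhr2, the receptor of anti-Müllerian hormone, did likewise at -0.99 (adjusted p = 0.00149), and Amh was at -0.88 (adjusted p = 0.12). The 13 inhibin, activin and AMH genes held no call. Their summed level was 2890, 3260 and 2620 CPM in R111G/+ against 3970, 4240 and 4160 CPM in -/- gonads. These sums did not overlap, and neither did the levels of 23.1% of single genes tested.

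**Figure D3:**
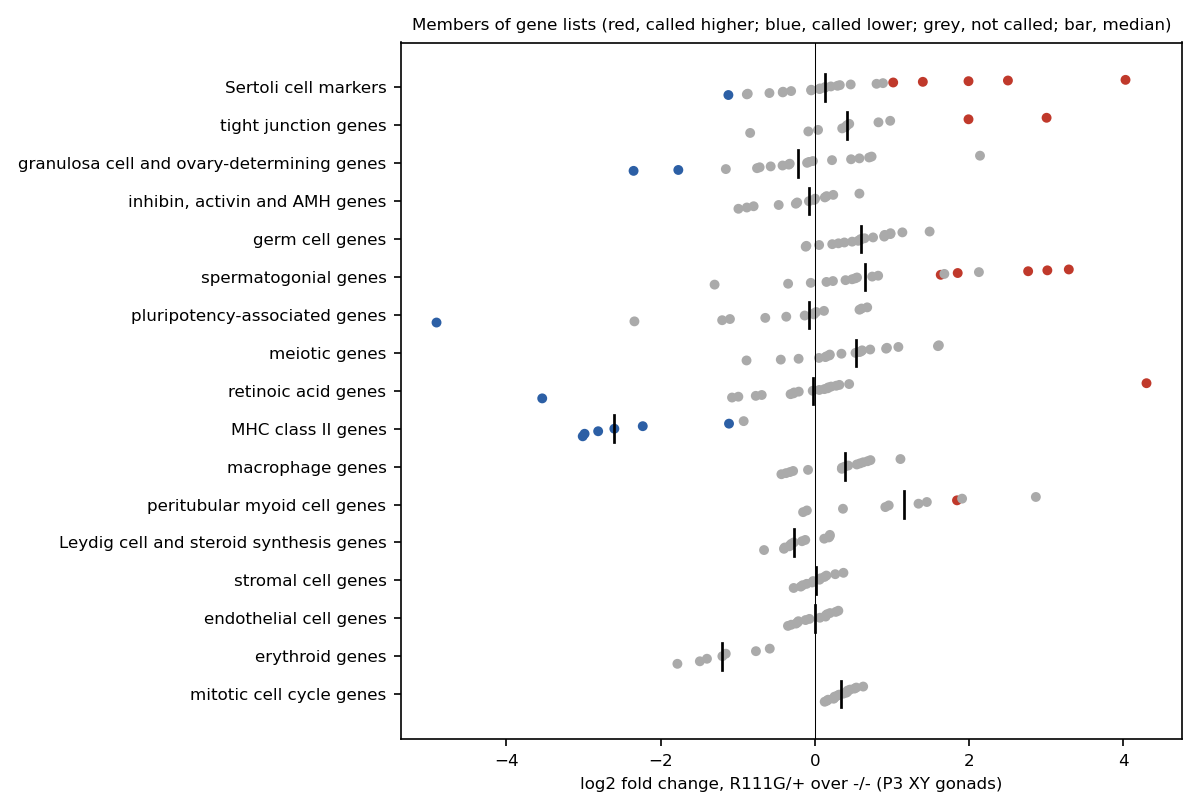
Log2 fold change between Dmrt1 R111G/+ and -/- P3 XY gonads (x axis) for the tested members of 17 gene lists (y axis), with red points for members called higher, blue for lower, grey for not called and black bars for list medians. The MHC class II list has 6 of 7 members called lower and a median of -2.60. Medians of the other lists run from -1.20 for erythroid genes to 1.15 for peritubular myoid cell genes.

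Markers of other cells were compared to describe the make-up of the libraries. Leydig cell (13 tested), stromal (12) and endothelial (14) genes held no call, with medians of -0.27, 0.02 and 0, and neither did the 6 Y chromosome genes, whose summed levels of 386 to 415 CPM against 381 to 406 CPM overlapped. Peritubular myoid cell genes, of the contractile cells around the tubule, had a median of 1.15 over 10 genes, and their summed level was 1010, 1130 and 1480 CPM in R111G/+ against 516, 667 and 562 CPM in -/- gonads. Tagln, the smooth muscle protein transgelin, was the only one called (1.84, adjusted p = 0.0274, edgeR), and lost that call when any 1 library other than R111G/+ replicate 2 was left out. Erythroid genes had a median of -1.20 with no call over 7 genes. Their sum was 434, 907 and 641 CPM in R111G/+ gonads and 1340, 3030 and 948 CPM in -/- gonads. All 16 mitotic cell cycle genes had a positive log2 fold change, with a median of 0.34 and no call. The part of these shifts in the calls was not tested.

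**Figure D4:**
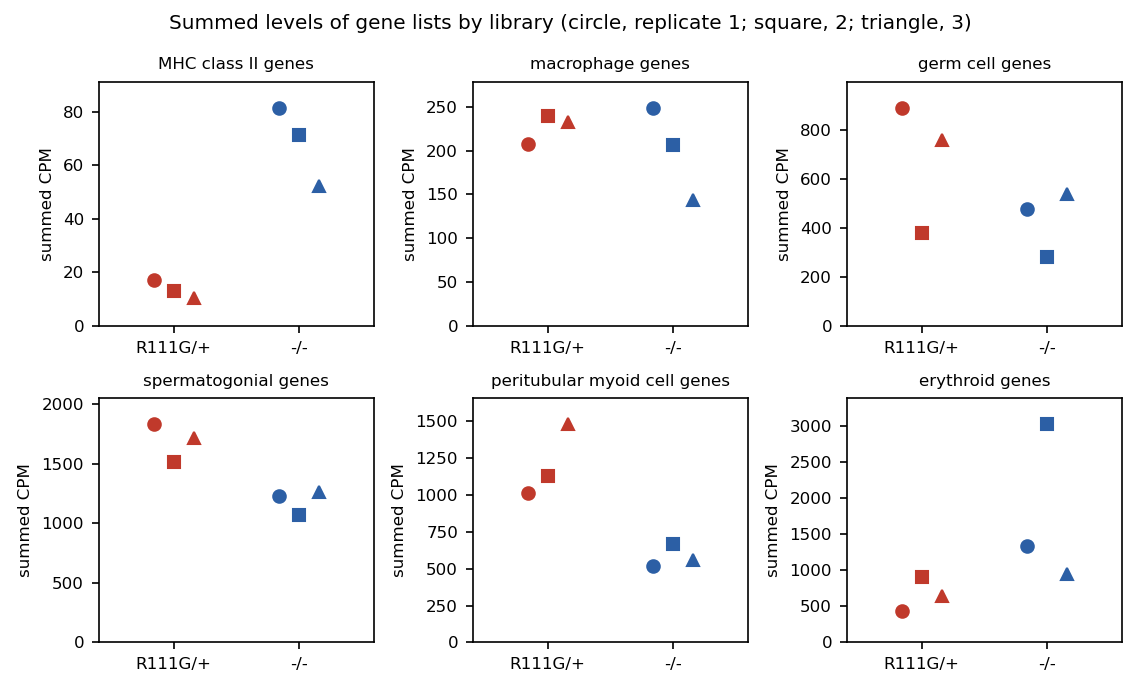
Summed CPM (y axes, from 0) of 6 gene lists in the 3 Dmrt1 R111G/+ (red) and 3 Dmrt1 -/- (blue) P3 XY gonad libraries, with marker shape for the replicate. The MHC class II, spermatogonial, peritubular myoid and erythroid sums do not overlap between genotypes, and the macrophage and germ cell sums do. Of single genes tested, 23.1% had no overlap. Most of the spermatogonial sum is the cyclin gene Ccnd2, named with its values seen and not called, with means of 1163 CPM in R111G/+ and 883 CPM in -/- gonads.

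Genes near Dmrt1 were counted apart, since the 2 groups differ by design in the allele they carry there. Of 8 genes tested within 1 Mb of Dmrt1, 2 were called, both higher, and they were also the only 2 of 57 within 5 Mb, Dmrt1 aside. Over all genes tested 1.89% were called. Pip5k1b, a lipid kinase gene, stood at 7.56, 6.59 and 7.48 CPM against 1.99, 2.37 and 2.28 CPM (1.70 ± 0.25, adjusted p = 0.00213, edgeR). Gm10053 gave 3.95, 7.82 and 6.44 CPM against 2.49, 1.84 and 1.6 CPM (1.61 ± 0.34, adjusted p = 0.0193), a call lost without replicate 2 or 3 of either genotype. Both Pip5k1b and Gm10053 were also called higher in control than in Dmrt1-deleted P7 Sertoli cells, by 2.64 and 2.40. The P7 groups also differ by design in the Dmrt1 allele they carry. The part of nearby sequence in these values was not tested. On the X chromosome 17 genes were called higher and 3 lower of 622 tested (3.22%). Among 764 pseudogenes 10 were higher and 1 lower (1.44%), beside 1.89% of all genes tested.

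All 4 called genes whose groups overlapped shared 1 pattern. Zfp990, Gm10036, Gm6724 and Nudc-ps1 were high in R111G/+ replicates 1 and 3 and near the null level in replicate 2, for example 65.5, 1.90 and 60.2 CPM against a mean of 1.44 CPM in -/- gonads for Gm10036. They were named with their values seen. The mice were of mixed strain, and the part of strain in these values was not tested.

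The genes called at P3 were followed in 2 sets of libraries that the P3 fit did not use. P7 Sertoli cells came from animals with a tdTomato reporter in which Dhh-Cre, active in Sertoli cells, deleted floxed Dmrt1 (f/f), or left a normal copy (f/+, called control here and titled +/+ in the labels), and cells with Thy1 or c-Kit were depleted with magnetic beads. In these cells 4.56% of 14013 genes were called, 2% higher in controls and 2.56% lower. Of the P3-higher genes other than Dmrt1, 128 were tested and 69 (53.9%) were higher in controls and 0 lower. Of the P3-lower genes, 125 were tested and 49 (39.2%) were lower and 1 was higher, Asic4, a channel gene named with its value seen. The P3-lower count ranged from 23 to 52 when 1 library of either comparison was left out, and was 23 without R111G/+ replicate 3 or deleted replicate 3, 27 without R111G/+ replicate 1 or control replicate 3, 30 without deleted or control replicate 1, and 32 without -/- replicate 1.

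Ocln stood at 107, 76.3 and 117 CPM in control and 3.72, 4.92 and 3.70 CPM in deleted Sertoli cells (log2 fold change 4.61, adjusted p = 0.000396, edgeR). Clec12b gave 94.8, 62.6 and 142 CPM against 0.109, 1.38 and 2.06 CPM (6.61, adjusted p = 0.00146). Foxl2 gave 0.358, 0 and 0.288 CPM against 17, 11.6 and 30.4 CPM (-6.28, adjusted p = 0.00189). All 6 MHC class II genes tested there were lower in controls, with a median of -3.37, and H2-Aa stood at 2.50, 2.31 and 2.16 CPM against 23.6, 18.3 and 13 CPM. Gfra1 and Ret were not called in the depleted cells (1.1 and 1.27, adjusted p = 0.168 and 0.0922). Germ cell mRNA remained there, with Dazl at 135, 159 and 282 CPM in control and 76.2, 303 and 79.4 CPM in deleted cells. Called higher in controls were 4 of 20 germ cell and 3 of 18 spermatogonial genes tested, beside 2% of all genes. No member of either list was called lower. Dmrt1 stood at 179, 172 and 270 CPM in control and 24.7, 38.2 and 22.2 CPM in deleted cells. The part of germ cells in the P7 values was not tested.

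At P28 the same 2 genotypes differed far more widely, with 37.7% of 20952 genes called, 27.6% higher and 10.1% lower in R111G/+ gonads. Higher in R111G/+ gonads were 13 of 16 germ cell genes tested (median 6.8) and 19 of 20 meiotic genes (median 6.48). Dazl stood at 408, 413 and 367 CPM in R111G/+ and 1.74, 2.67 and 0.887 CPM in null gonads. The part of this germ cell difference in the P28 values was not tested. Of 134 P3-higher genes tested there, 57 (42.5%) were higher and 15 (11.2%) lower. Of 134 P3-lower genes, 63 (47%) were lower and 13 (9.7%) higher. Without R111G/+ replicate 3 at P3, 39 P3-higher genes were higher and 23 P3-lower genes lower. Foxl2 reached 121, 159 and 185 CPM in P28 null gonads and stayed at 0.0901, 0.335 and 0.368 CPM in R111G/+ gonads (-9.07, adjusted p = 4.84e-09, edgeR). The MHC class II genes held no call at P28, with H2-Aa at 77.6, 12.5 and 27.2 CPM in R111G/+ and 19.1, 32.2 and 16.9 CPM in null gonads. Tests of the difference between the ages are given for single genes among the additional observations.

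**Figure D5:**
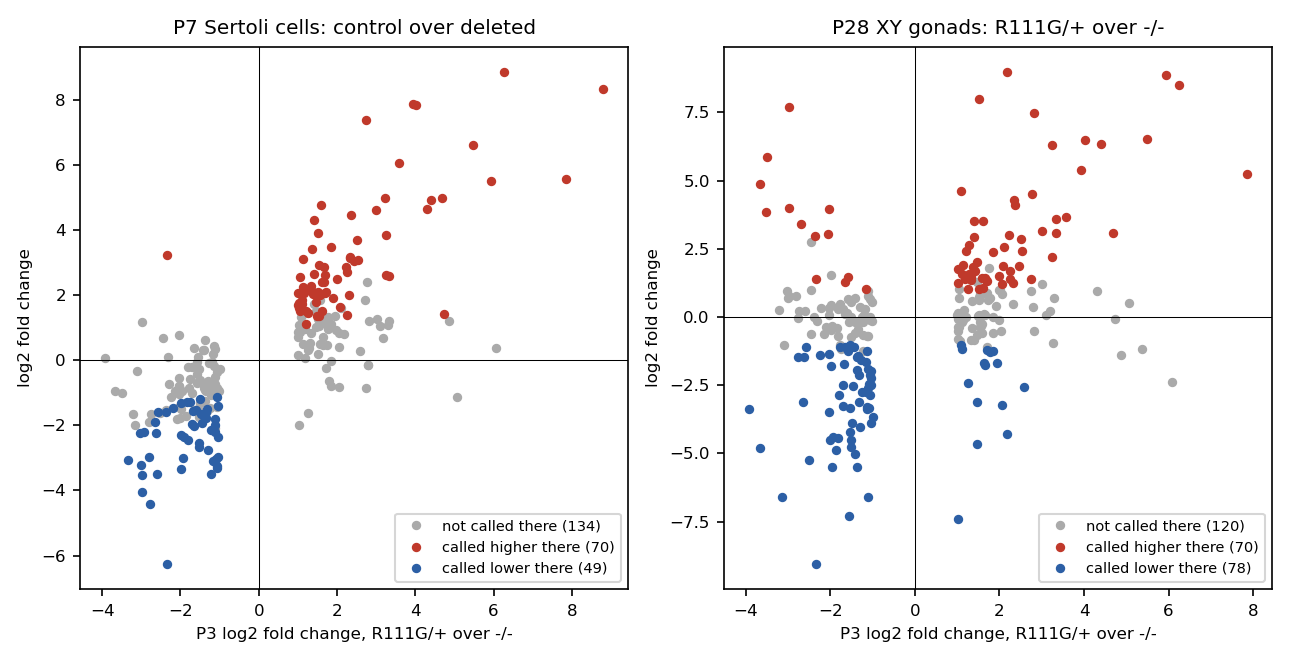
Log2 fold change of the genes called at P3 (x axes, R111G/+ over -/-) in P7 Sertoli cells (left, control over Dmrt1-deleted) and in P28 XY gonads (right, R111G/+ over -/-), with red for genes called higher there, blue for lower and grey for not called. On the left 69 genes called higher at P3 and 1 called lower are red, and on the right the 15 and 13 genes called in the opposite direction fill the other 2 quadrants.

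Promoters of the called genes were searched for ACANTGT, the palindromic core of the DMRT1 binding motif, in the same 300-base windows. It was held by 6 of 96 genes called higher (6.25%) and 6 of 108 called lower (5.56%), beside 3.99% of tested genes and 7.59% of all promoters, so the shares lay near the background. Among the named genes 3 of 35 held it, Mybpc3, Myo1a and Chst10, all called lower. The first 2 are shown, with the motif in capitals, because it lies just upstream of the start in both.
Mybpc3, chr2:91117894-91118193 plus strand: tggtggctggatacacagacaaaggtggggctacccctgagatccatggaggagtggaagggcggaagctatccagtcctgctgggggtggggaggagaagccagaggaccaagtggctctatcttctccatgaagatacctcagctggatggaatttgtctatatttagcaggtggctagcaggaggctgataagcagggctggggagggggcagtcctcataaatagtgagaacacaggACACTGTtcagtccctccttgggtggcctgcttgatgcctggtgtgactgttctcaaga
Myo1a, chr10:127705006-127705305 plus strand: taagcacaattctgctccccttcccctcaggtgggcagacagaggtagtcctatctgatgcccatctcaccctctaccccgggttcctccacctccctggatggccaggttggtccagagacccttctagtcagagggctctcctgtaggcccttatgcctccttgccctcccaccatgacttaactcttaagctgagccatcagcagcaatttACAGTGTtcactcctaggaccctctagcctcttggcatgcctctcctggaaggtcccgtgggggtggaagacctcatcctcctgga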

How the data were processed

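Strand-specific, paired-end mRNA libraries were sequenced by the authors, who trimmed reads with Trim Galore 0.6.0 and cutadapt 1.18, checked them with FastQC 0.11.8, aligned them with STAR 2.7.2a to GRCm38 and counted them per GENCODE M25 gene with RSubread. The deposited values are the resulting raw counts. From them, genes were filtered with filterByExpr, scaled by TMM and tested with the quasi-likelihood F test of edgeR 4.0.16 in R 4.3.3, with 1 fit over the 12 P3 libraries, which held 7035359 to 9101672 counts. P28 and P7 libraries were fitted separately. Standard errors were computed from the fold change and F. Intervals of count ratios are exact 95% intervals and cover counting error only. Positions and biotypes came from GENCODE M21, which held 55141 of the 55401 gene identifiers (99.5%), and promoters from RefSeq. Genes named in the text were the 15 with the largest fold change and the 5 with the smallest p in each direction among called genes with a mean of at least 1 CPM over the 6 libraries and no overlap of the groups, predicted gene models passed over, at most 4 genes a list by adjusted p, genes the study names and genes within 1 Mb of Dmrt1, with exceptions stated. The members and the 28 gene lists were chosen with earlier results of these data known. Alternatives were other scaling factors (DESeq2 1.42.0 size factors, library totals, factors from 4 lists of other cells), other filters, no fold limit, DESeq2's Wald test, the 6 libraries alone, a replicate block, each library left out and, added after seeing the data, the germ cell list level as a covariate. Hi-C data of the study and the fold changes and p-values of its supplement were not used here. A result of 1 gene that the naming rule picked is not reported here.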

Additional observations from a re-analysis of the deposited data

Results flagged for a closer look

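Of 61 named genes examined, 28 had a different response to genotype at P28 than at P3 by an interaction test in edgeR, given here as the P28 minus P3 difference in log2 fold change (R111G/+ over -/-). Most of these genes were examined because they were called at P3, and the test used the same P3 libraries again. That choice favours a smaller difference at P28, so the count of 28 does not describe genes at large. At P28, 37.7% of all genes tested were called between these genotypes, a share of that contrast and not of the interaction test. The share of all genes past the interaction test is not given here. The count of 28 therefore cannot be set against a background. The gonad at P28 holds other cell types than at P3, and P28 null gonads held far less germ cell mRNA than R111G/+ gonads. The part of these differences in the values was not tested. Genes called in opposite directions at the 2 ages were Bcl6b (-3.33) and Tagln (-3.10), higher at P3 and lower at P28, and Bmerb1 (5.33), Cnpy1 (7.34), Ifitm7 (9.36) and Nobox (6.12), lower at P3 and higher at P28.

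The MHC class II genes lost their P3 decrease, with differences of 3.59 for H2-Aa, 3.74 for H2-Ab1, 2.55 for H2-DMb1 and 3.71 for H2-Eb1. Among the other genes lower at P3, the difference was 1.29 for Chst10, 2.47 for Crabp2, 8.25 for Hoxb1, 2.08 for Ky, 2.11 for Myo1a and 3.45 for Slc9a3, each toward a smaller decrease or an increase. Crabp2 and Hoxb1 did not pass the count filter of the P28 libraries alone. Foxl2 and Dsg2 went the other way, with a deeper decrease at P28 (-6.72 and -3.45).

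Genes with a smaller increase at P28, or none, were Cidea (-4.22), Gfra1 (-2.60), Ntn4 (-2.98), Rarres1 (-3.35) and Sh3gl2 (-1.05), while the gap of Dmrt1 itself widened by 2.04. Several regulators not called at P3 differed with age, Esr2 by -3.07, Nr5a2 by -6.16, Hsd17b3 by 9.0 and Sox9 by 1.17.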

How the results depend on the processing

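The replicate numbers were not treated as pairs in the main fit. The correlation of deviations between same-numbered R111G/+ and -/- libraries was 0.0397, 0.206 and 0.0409, beside -0.204 to 0.179 between unlike-numbered libraries. These values do not settle whether the numbers mark pairs. With the replicate block, 117 genes were called higher and 119 lower, 227 of the 299 calls remained, and Hoxb1, Nobox, Otx2 and Sox10 lost theirs.

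Among the 143 higher and 156 lower calls, 295 of 299 remained with DESeq2 size factors, 283 with library totals and 292 with DESeq2's Wald test. Scaling on the stromal, myoid, endothelial and macrophage genes alone moved the median of all genes to -0.173, left 189 of the 299 calls and 82 genes higher, and took the calls of Aard, Gm10053 and Sox10. No filter gave 383 higher and 332 lower, and no fold limit 276 and 252. The germ cell covariate, chosen after seeing the data, left 195 calls and removed those of Aard, Sox10 and Tagln. Leaving out 1 library gave 87 to 199 higher and 57 to 162 lower genes at P3, and 153 to 415 and 121 to 574 in P7 Sertoli cells. No named gene that was called reversed its sign, and sign changes of named genes without a call were not counted.

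Of P3-higher genes, those higher at P28 were 170 with no filter, 95 with no fold limit and 39 to 91 with 1 library left out, and those higher in P7 controls were 43 with list-based factors. Of P3-lower genes, those lower at P28 were 105 with no fold limit, 41 with the covariate and 23 to 63 with 1 library left out, and in P7 cells 23 to 52. With no filter, 189 genes were called in R111G/+ against +/-, 312 in -/- against +/- and 179 in R111G/- against -/-, and with DESeq2's Wald test 79, 127 and 62. The causes of these shifts were not tested. With 3 libraries a genotype, genes at a few counts, Foxl2 among them, lie at the limit of what this depth shows.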
